A study of Mus musculus with 6 samples.

Results

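The peaks described here lie near the distal ends of mouse chromosomes 1 to 19, in 6 lists of ChIP-seq peaks for ATRX, DAXX and control IgG. They were chosen by position alone. A peak was a member when its start lay at or above a fixed border on its chromosome, from 187 Mb on chromosome 1 to 51 Mb on chromosome 19 in build mm9, which takes in about the last 10 Mb. These windows held 1202 of the 7165 peaks in the 6 lists. The members were 213 of the 1440 WT ATRX peaks, 87 of 570 WT DAXX peaks, 66 of 402 WT IgG peaks, 240 of 1650 TKO ATRX peaks, 392 of 2046 TKO DAXX peaks and 204 of 1057 TKO IgG peaks. The other peaks of chromosomes 1 to 19, 5801 in all, are called the rest, and 162 peaks on chromosomes X and Y were in neither class.

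ATRX is a chromatin remodeller of the SWI/SNF family, and DAXX is a chaperone that brings it the histone variant H3.3. Together they deposit H3.3 in heterochromatin, including telomeres, pericentromeric satellites and silenced retrotransposons. Mouse autosomes are telocentric: the centromere sits at the low-coordinate end, so the high-coordinate end is the one whose subtelomere joins the long chromosome arm. Subtelomeres are often rich in genes, in CpG and in duplicated or tandemly repeated sequence, which short reads place poorly.

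The study asked where ATRX and DAXX sit on chromatin in mouse embryonic stem cells with and without DNA methylation. WT cells were of the J1 line. TKO cells carried homozygous knockouts of the DNA methyltransferase genes, and the labels name neither a clone nor the parental line. Cells of both genotypes were grown in medium with PD0325901 (1 µM, against MEK) and CHIR99021 (3 µM, against GSK3β), a pair known as 2i that by itself lowers DNA methylation in embryonic stem cells. All were fixed in 4% paraformaldehyde for 10 min. ATRX was precipitated with antibody SC-15408, DAXX with SC-7152 and the control with rabbit IgG. Each genotype and antibody was represented by 1 library, so the spread between cultures is unknown, no difference between lists could be tested, and the 95% intervals given here are exact binomial intervals over peaks that cover counting error only.

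A pair of the lists is not independent. On chromosomes 1 to 19 the WT ATRX and TKO DAXX lists held 741 peaks with the same start and end, although they differ in genotype and in antibody. Of these, 110 lay in the windows, 51.6% of the WT ATRX members and 28.1% of the TKO DAXX members. Why they share them is not known: the labels do not say whether libraries or lists were mixed or peaks called on pooled reads, so the names WT ATRX and TKO DAXX stand for the lists labelled so. Densities, overlaps and counts are therefore also given for the unshared peaks. The lists hold no library totals, so the depth of each library is unknown, and a list with more peaks may come from a deeper library.

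All 4 antibody lists were denser in the distal windows than along the rest of the same chromosomes. The windows made up 7.55% of the span covered by peaks, 180.6 Mb against 2210.7 Mb for the rest. For ATRX they held 14.9% (13.1 to 16.9) of the chromosome 1 to 19 peaks in WT and 14.7% (13.0 to 16.5) in TKO, and for DAXX 15.5% (12.6 to 18.7) in WT and 19.4% (17.7 to 21.2) in TKO. WT ATRX had 1.18 peaks per Mb in the windows and 0.550 in the rest, a density ratio of 2.15 (1.85 to 2.48). The ratio for WT DAXX was 2.24 (1.76 to 2.82), from 0.482 against 0.215 peaks per Mb. For TKO ATRX it was 2.11 (1.84 to 2.43), from 1.33 against 0.629 peaks per Mb. TKO DAXX had the highest ratio of the antibody lists, 2.94 (2.63 to 3.28), from 2.17 against 0.738 peaks per Mb.

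The control lists were dense in the windows as well. WT IgG had a ratio of 2.65 (2.00 to 3.47) and TKO IgG one of 3.18 (2.72 to 3.72), with 17.8% (14.0 to 22.1) and 20.6% (18.2 to 23.3) of their peaks in the windows. A single chromosome carried both values. Without chromosome 4 the ratio was 0.745 (0.435 to 1.20) for WT IgG and 0.617 (0.433 to 0.855) for TKO IgG, while ATRX kept ratios of 2.09 in WT and 1.95 in TKO, and DAXX of 1.87 (1.43 to 2.42) and 2.91.

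Chromosomes 8 and 11 set the lead of TKO DAXX over the other antibody lists. Without them the TKO DAXX members fell in number from 392 to 197 and the density ratio was 2.09 (1.79 to 2.43), beside 2.22 (1.70 to 2.85) for DAXX in WT and, for ATRX, 2.09 (1.77 to 2.46) in WT and 2.18 (1.87 to 2.52) in TKO. The IgG ratios without chromosomes 8 and 11 were 3.04 for WT and 3.59 for TKO, because these lists had almost no distal peaks there. With chromosomes 4, 8 and 11 all left out, the ratios of the WT lists were 2.02 for ATRX, 1.78 for DAXX and 0.859 for IgG, and those of the TKO lists 1.99, 2.01 and 0.669.

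**Figure D1:**
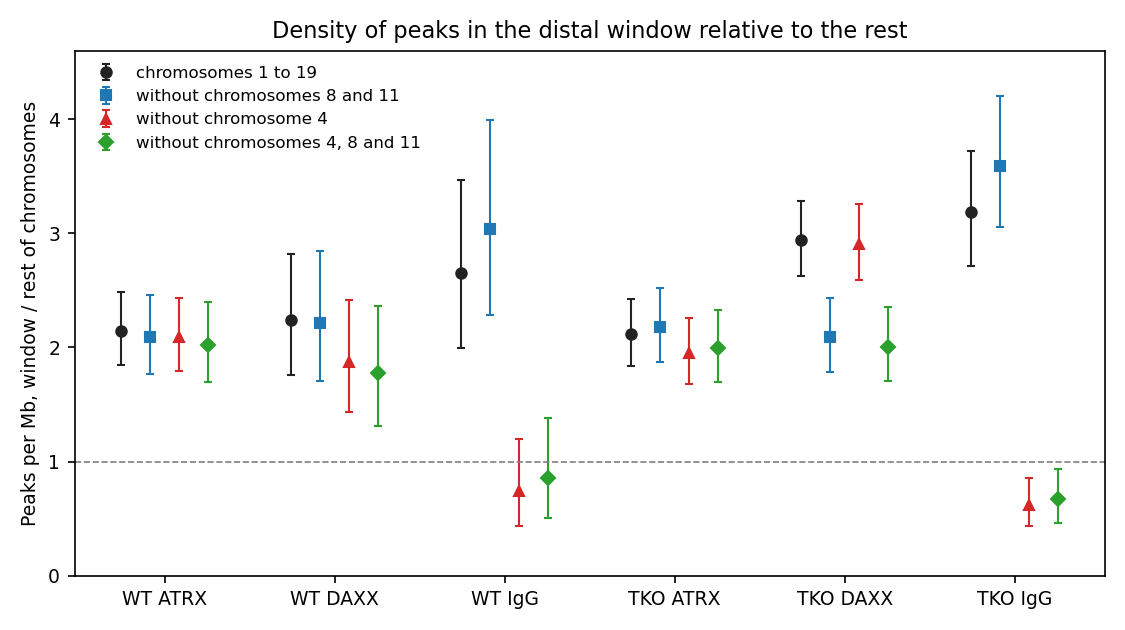
Density of peaks in the distal windows divided by that in the rest of chromosomes 1 to 19, for each list, with all chromosomes and with chromosomes 8 and 11, 4, or 4, 8 and 11 left out; bars are exact 95% intervals for counting error and the dashed line marks equal density. The 4 antibody lists stay between 1.78 and 2.94 in each of these settings, and both IgG lists drop under 1 when chromosome 4 is left out.

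The peaks shared by the WT ATRX and TKO DAXX lists had little part in the WT ATRX value. The 687 WT ATRX peaks that TKO DAXX did not share had 103 in the windows, 15.0%, a density ratio of 2.16 (1.73 to 2.67). Of the 1283 TKO DAXX peaks not shared, 282 lay in the windows, 22.0%, a ratio of 3.45 (3.01 to 3.94). Without chromosomes 8 and 11 as well, the unshared peaks gave ratios of 2.29 for WT ATRX, from 92 of 591 peaks, and 2.25 for TKO DAXX, from 119 of 778 peaks. Without chromosome 4 in place of 8 and 11, the unshared WT ATRX peaks gave 1.99 (1.58 to 2.5).

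The distal excess of antibody peaks was spread over most chromosomes. The window was denser than the rest on 17 of 19 chromosomes for ATRX and 15 for DAXX in WT cells, and on 18 and 19 in TKO cells. For the unshared peaks it was denser on 16 chromosomes in WT ATRX and on 16 in TKO DAXX. The median ratio over the 19 chromosomes was 2.19 for ATRX and 1.92 for DAXX in WT, and 1.94 and 2.24 in TKO. The TKO DAXX median is the ratio of chromosome 17. The exceptions for WT ATRX were chromosomes 1 and 14, with ratios of 0.95 and 0.725, and the exception for TKO ATRX was chromosome 7, with 0.705. IgG was denser in the window on 8 of 19 chromosomes in each genotype, with median ratios of 0.855 for WT and 0.638 for TKO. The IgG windows had no peak on 7 chromosomes in WT and on 2 in TKO, whereas each antibody list had at least 1 peak in each window.

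Window counts per chromosome ranged from 3 to 25 for ATRX and from 1 to 18 for DAXX in WT, and from 4 to 31 and from 6 to 101 in TKO. Chromosome 11 was the richest window of WT ATRX, with 25 peaks, and chromosome 4 that of WT DAXX and TKO ATRX, with 18 and 31 peaks. The distal part of chromosome 15 held 9 of the 18 WT DAXX peaks on that chromosome, a ratio of 9.15. Chromosome 9 held 19 WT ATRX, 5 WT DAXX, 19 TKO ATRX and 17 TKO DAXX members, with 1 IgG peak in each genotype.

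**Figure D2:**
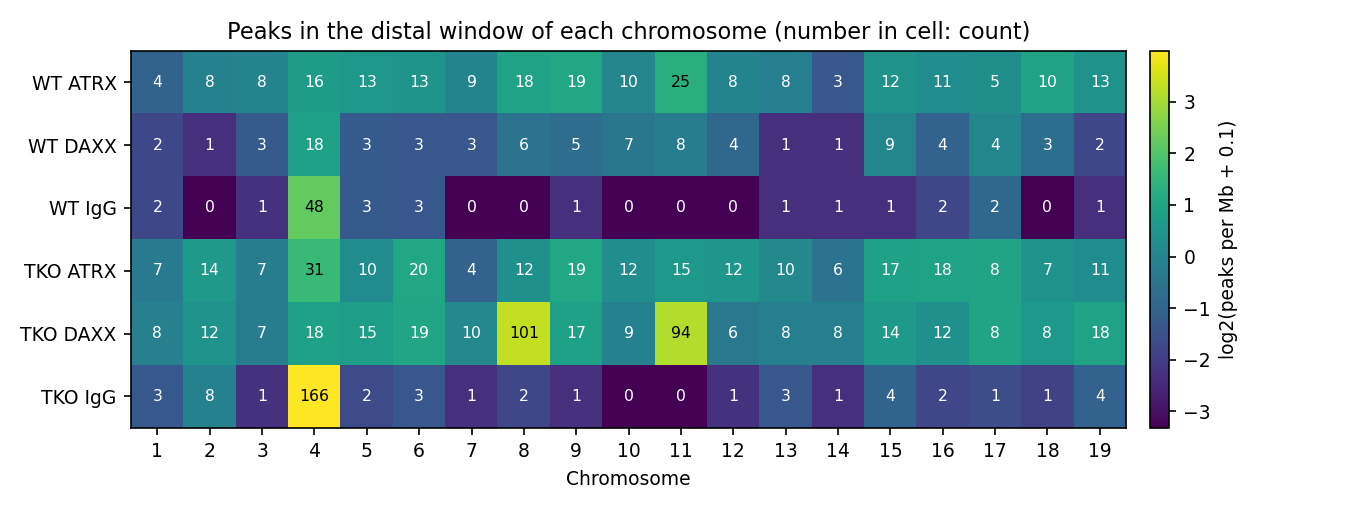
Number of peaks in the distal window of each of chromosomes 1 to 19 in each of the 6 lists (printed in the cell); the shade gives log2 of peaks per Mb plus 0.1. TKO DAXX stands out on chromosomes 8 and 11, with 101 and 94 peaks, and IgG on chromosome 4, with 48 peaks in WT and 166 in TKO.

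TKO DAXX had the most distal peaks on chromosomes 8 and 11. It had 101 peaks in the chromosome 8 window, where WT ATRX had 18, WT DAXX 6, TKO ATRX 12, WT IgG 0 and TKO IgG 2. In the chromosome 11 window it had 94 peaks, where WT ATRX had 25, WT DAXX 8, TKO ATRX 15 and both IgG lists 0. The local density was 9.83 peaks per Mb on chromosome 8, a ratio of 7.62 to the 1.29 per Mb in the rest of that chromosome, and 8.72 per Mb on chromosome 11. There the rest was raised too, at 2.85 per Mb against 0.738 over all chromosomes, and the ratio of 3.06 was below those of chromosomes 4, 16 and 18, at 3.52, 3.32 and 3.29. These 195 peaks were 49.7% (44.7 to 54.8) of all TKO DAXX members, and 163 of them, 87 on chromosome 8 and 76 on chromosome 11, were not shared with the WT ATRX list. The cause of these counts was not tested.

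The densest run of TKO DAXX peaks lay on chromosome 8. It had 7 peaks less than 1 kb apart in chr8:125949701-125958443, with scores from 103.51 to 296.53. A score is the confidence value of the peak caller, read here as 10 times the negative log10 of its p-value. The last of the 7, chr8:125957198-125958443, was also in the WT ATRX list with identical ends, at a score of 80.38 there and 296.53 in TKO DAXX. The other 6 were in no other antibody or IgG list.

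The IgG members of chromosome 4 filled a stretch of 2.06 Mb, chr4:145089512-147147634. Its ends are those of the outermost IgG members there, so all IgG members of that window lie inside it by definition. The 48 WT IgG and 166 TKO IgG members on that chromosome had a density of 23.3 and 80.7 peaks per Mb in it. They were 72.7% and 81.4% of all IgG members of their genotypes. The antibody lists had 3 WT ATRX, 11 WT DAXX, 14 TKO ATRX and 1 TKO DAXX peaks in the same stretch, or 1.46, 5.34, 6.80 and 0.486 per Mb. Of these 29 antibody peaks, 2 overlapped an IgG peak, 1 each from WT DAXX and TKO ATRX. In the rest, 0 to 0.329% of an antibody list overlapped either IgG list. The median distance to the nearest IgG peak was 373 bp for WT ATRX, 1031 bp for WT DAXX and 10129.5 bp for TKO ATRX. For the 1 TKO DAXX peak it was 9792 bp. IgG peaks are dense there, and no background was made for these distances. Elsewhere in the chromosome 4 window there were 13 WT ATRX, 7 WT DAXX, 17 TKO ATRX and 17 TKO DAXX peaks and no IgG peak, or 1.54, 0.828, 2.01 and 2.01 antibody peaks per Mb. WT DAXX and TKO ATRX were thus denser inside the stretch than outside it, and WT ATRX and TKO DAXX were not.

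Many of the peaks in that stretch were copies of one another in their listed values. In WT IgG 28 of the 48 peaks (58.3%, 43.2 to 72.4) had exactly the length, tag count, score and fold enrichment of another peak of the list, and in TKO IgG 74 of 166 (44.6%, 36.9 to 52.5) did. The IgG shares over the rest of the chromosomes were 29.5% and 29.3%. By length and score, the values these lists give, 7 of the 11 WT DAXX peaks in the stretch had a copy there. The counts were 2 of 3 for WT ATRX and 2 of 14 for TKO ATRX. By the same match the shares in the rest were 3.79% for WT DAXX, 24.2% for WT ATRX and 18.4% for TKO ATRX. The 2 of 14 in TKO ATRX thus did not exceed the share in its rest. For example, TKO IgG had 161 tags and a fold enrichment of 48.6 at both chr4:145879202-145881325 and chr4:146424557-146426680, each 2124 bp long. Of the 40 pairs of such copies in the TKO IgG window on chromosome 4, 30 lay 545356 bp apart to within 10 bp, and 10 of 17 pairs in WT IgG did. So did 2 of 5 pairs in WT DAXX, and the 1 pair each in WT ATRX and TKO ATRX. The cause of the copies was not tested.

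**Figure D3:**
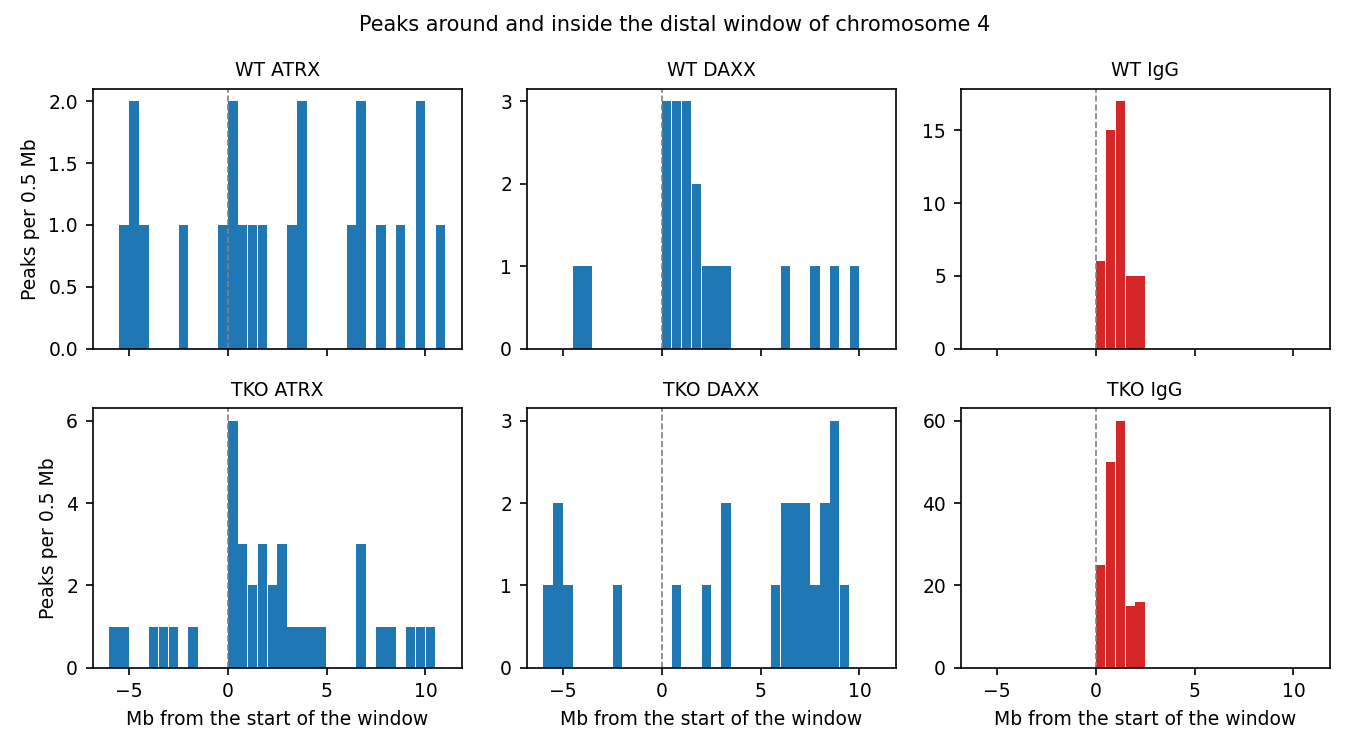
Number of peaks along the distal window of chromosome 4 in each list, per 0.5 Mb, by distance from the start of the window (Mb; negative values lie before it, dashed line at the border). The IgG peaks, 48 in WT and 166 in TKO, stand together just inside the border, where 11 of 18 WT DAXX and 14 of 31 TKO ATRX peaks of the window also lie.

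Within the last 10 Mb the antibody lists showed no steady rise toward the chromosome end. Distances were counted from the highest listed peak end on each chromosome. WT ATRX had 1.12 peaks per Mb in the last 2.5 Mb, 1.35 from 2.5 to 5 Mb, 1.05 from 5 to 7.5 Mb and 1.05 from 7.5 to 10 Mb, and then 0.811 from 10 to 20 Mb, 0.637 from 20 to 30 Mb and 0.516 from 30 to 40 Mb. WT DAXX lay between 0.379 and 0.484 per Mb in the last 10 Mb, and had 0.274, 0.232 and 0.179 per Mb in the next 3 steps of 10 Mb. The decline thus reached beyond the windows in both lists. The unshared WT ATRX peaks had 0.589, 0.632, 0.4 and 0.526 per Mb in the 4 steps of the last 10 Mb and 0.384, 0.295 and 0.226 beyond.

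TKO ATRX and TKO DAXX were highest from 2.5 to 5 Mb, at 2.00 and 2.88 peaks per Mb, against 0.947 and 1.58 in the last 2.5 Mb. Beyond 10 Mb, TKO ATRX had 0.768, 0.658 and 0.621 per Mb and TKO DAXX 1.13, 0.879 and 0.774 per Mb in steps of 10 Mb. With chromosomes 4, 8 and 11 left out, the value from 2.5 to 5 Mb was 2.13 for TKO ATRX and 1.75 for TKO DAXX. The unshared TKO DAXX peaks were also highest there, at 2.17 per Mb, against 1.05 in the last 2.5 Mb and 0.705 from 10 to 20 Mb. The IgG lists peaked from 7.5 to 10 Mb, at 0.947 per Mb in WT and 3.12 in TKO, where the chromosome 4 stretch lies. In the last 2.5 Mb both IgG lists had 0.105 peaks per Mb.

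**Figure D4:**
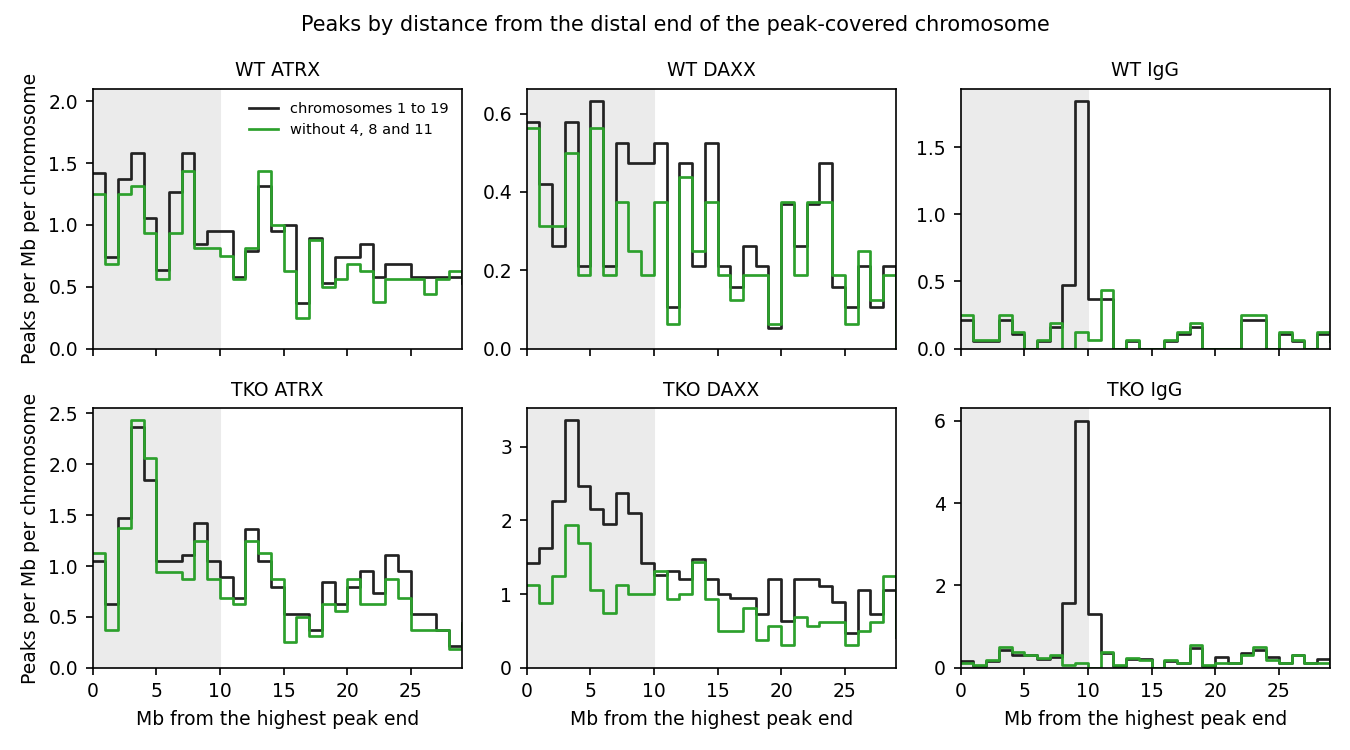
Peaks per Mb in each list against distance from the highest listed peak end (Mb), with all chromosomes 1 to 19 and without chromosomes 4, 8 and 11; the shaded area is the last 10 Mb. The antibody lists are on average higher there than beyond it, with wide scatter between single Mb, and the IgG maximum from 7.5 to 10 Mb comes from chromosome 4.

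At the border TKO DAXX had 29 peaks in the 1 Mb inside and 27 in the 1 Mb outside, summed over the chromosomes. The counts inside and outside were 26 and 16 for WT ATRX, 30 and 16 for TKO ATRX, and 15 and 1 for WT DAXX, and chromosome 4 gave 9 of the 30 and 6 of the 15. For unshared peaks they were 16 and 3 in WT ATRX and 19 and 14 in TKO DAXX. For IgG they were 22 and 0 in WT, and 77 and 2 in TKO, of which chromosome 4 gave 21 and 75 of the inside counts. On the opposite, centromere-side end, the first 10 Mb held 0.695 ATRX and 0.263 DAXX peaks per Mb in WT, and 0.795 and 1.05 in TKO. These values lay below those of the distal windows and above the 0.536, 0.210, 0.613 and 0.709 per Mb of the stretch between. For unshared peaks the first 10 Mb, the stretch between and the windows had 0.3, 0.261 and 0.57 per Mb in WT ATRX and 0.658, 0.434 and 1.56 in TKO DAXX. For IgG the first 10 Mb held 0.426 peaks per Mb in WT and 1.28 in TKO, above both the between stretch, at 0.111 and 0.268, and the distal windows, at 0.365 and 1.13 with chromosome 4 and 0.106 and 0.223 without it.

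Between the genotypes, DAXX had more window peaks in TKO, and the ATRX ratio in the windows was close to that in the rest. TKO ATRX had 1.13 times (0.933 to 1.36) as many window peaks as WT ATRX, beside 1.14 times (1.06 to 1.24) in the rest, and 1.25 times (1.02 to 1.54) without chromosomes 8 and 11. TKO DAXX had 4.51 times (3.56 to 5.75) as many window peaks as WT DAXX, beside 3.44 times (3.10 to 3.81) in the rest. The 2 DAXX lists reach down to unlike scores: the lowest member scored 50.45 in WT DAXX and 70.09 in TKO DAXX. The lowest ATRX members scored 70.08 in WT and 70.19 in TKO. DAXX counts were therefore not compared at a common cutoff. Without chromosomes 8 and 11 the DAXX ratio was 2.70 (2.05 to 3.58) in the windows and 2.86 (2.55 to 3.21) in the rest. Dropping the identical peaks takes peaks only from WT ATRX and TKO DAXX, so it must raise the ATRX ratio and lower the DAXX ratio. Without them TKO ATRX had 2.33 times (1.84 to 2.96) as many window peaks as WT ATRX and 2.38 times (2.16 to 2.63) as many in the rest. TKO DAXX then had 3.24 times (2.54 to 4.17) as many window peaks as WT DAXX and 2.11 times (1.89 to 2.36) as many in the rest, and 1.63 (1.21 to 2.21) and 1.61 times (1.42 to 1.82) without chromosomes 8 and 11 as well. IgG was 3.09 times (2.33 to 4.14) as frequent in TKO as in WT in the windows and 2.57 times (2.25 to 2.94) in the rest, and 2.11 times (1.18 to 3.93) in the windows without chromosome 4. By chromosome, the TKO count was above the WT count in 18 windows for DAXX, with 1 equal, and in 11 for ATRX, with 1 equal and 7 below. Genotype, library, depth and, for DAXX, the unlike lowest scores cannot be told apart in these ratios. The IgG counts moved in the same direction.

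Antibody peaks in the windows were close in width to those elsewhere. The median width in the windows and in the rest was 336 and 324 bp for WT ATRX, 360.5 and 347 bp for TKO ATRX, 543 and 557 bp for WT DAXX, and 338 and 326 bp for TKO DAXX. The exact 95% intervals of the window medians were 323 to 344 bp, 343 to 371 bp, 492 to 630 bp and 328 to 342 bp in the same order. The unshared peaks had medians of 324 and 329 bp in WT ATRX and 335 and 330 bp in TKO DAXX. IgG peaks were wider in the windows, at 530.5 against 427 bp in WT and 823 against 534 bp in TKO. Without chromosome 4 the IgG medians were 448 against 430 bp and 605.5 against 542 bp.

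Scores are comparable only within a list. The median score in the windows and in the rest was 81.51 and 81.34 for WT ATRX, 82.48 and 80.08 for TKO ATRX, 69.68 and 73.98 for WT DAXX, and 84.21 and 82.44 for TKO DAXX. For unshared peaks it was 77.94 and 78.42 in WT ATRX and 81.89 and 80.34 in TKO DAXX. For IgG it was 75.465 and 78.97 in WT, and 94.455 and 83.335 in TKO. In each of the 4 antibody lists the highest score lay outside the windows: the maxima in the windows and in the rest were 328.6 and 416.54 for WT ATRX, 499.66 and 1152.59 for TKO ATRX, 648.81 and 1007.39 for WT DAXX, and 502.74 and 1792.48 for TKO DAXX. The windows held 12 of the top 50 peaks of ATRX and 12 of DAXX in WT, and 14 and 11 in TKO. For IgG they held 5 of the top 50 in WT and 12 in TKO. The window shares of the whole lists were 14.9% for ATRX, 15.5% for DAXX and 17.8% for IgG in WT. In TKO they were 14.7%, 19.4% and 20.6%.

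The window share was highest among the top scores in the 3 TKO lists, and for TKO DAXX this did not hold without chromosomes 8 and 11. With each list split by score into 4 bins of equal size, from the lowest to the highest bin the windows held 50 of 408, 55 of 407, 59 of 407 and 76 of 408 TKO ATRX peaks, from 12.3% to 18.6%. For TKO DAXX they held 91, 92, 97 and 112 of 506 peaks per bin, from 18% to 22.1%. Without chromosomes 8 and 11 these counts were 47 of 343 and 53, 45 and 52 of 342, from 13.7% to 15.2% with no order by score, and without the shared peaks 71 and 59 of 321, 73 of 320 and 79 of 321. TKO IgG went the same way, from 36 to 68 of 247 peaks, 14.6% (10.4 to 19.6) to 27.5% (22.1 to 33.6). Of its 204 members, 166 lay in the chromosome 4 stretch, with a median score of 99.29 against 88.55 for the others. The IgG bins were not counted without chromosome 4. The intervals of the lowest and highest bins overlapped for TKO ATRX, at 9.23 to 15.8 and 15.0 to 22.8, and for TKO DAXX, at 14.7 to 21.6 and 18.6 to 26.0. WT ATRX had 64, 41, 58 and 50 of 357 and WT DAXX 25 of 141, 25 of 140, 13 of 140 and 24 of 141, with no order by score.

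Distal TKO ATRX peaks overlapped TKO DAXX peaks more often than TKO ATRX peaks elsewhere did. An overlap of at least 1 bp was counted. It held for 28 of the 240 TKO ATRX members (11.7%, 7.89 to 16.4) and for 77 of 1390 peaks in the rest (5.54%, 4.40 to 6.88), beside 6.44% of all TKO ATRX peaks on chromosomes 1 to 19. Without chromosomes 8 and 11 the intervals met, at 20 of 213 members (9.39%, 5.83 to 14.1) against 5.58% (4.36 to 7.02) in the rest. Without chromosome 4 the share was 13.4%. Without the peaks that TKO DAXX shares with WT ATRX it was 20 of 240 (8.33%, 5.16 to 12.6) against 2.88% (2.06 to 3.90) in the rest. With chromosomes 8 and 11 left out as well, it was 12 of 213 (5.63%, 2.94 to 9.63) against 2.63% (1.80 to 3.69), and the intervals met. TKO DAXX peaks were themselves denser in the windows, by the 2.94 times given for that list, and the part of that density in the overlap was not tested. Seen from TKO DAXX, 27 of 392 members (6.89%, 4.59 to 9.86) overlapped TKO ATRX, beside 5.43% of all TKO DAXX peaks and 5.09% in the rest. Of the unshared TKO DAXX members 20 of 282 did (7.09%, 4.39 to 10.7), against 4.50% (3.30 to 5.97) in the rest.

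In WT cells the factors met rarely in the windows. Of the WT ATRX members 6 of 213 (2.82%, 1.04 to 6.03) overlapped WT DAXX, beside 2.24% of all WT ATRX peaks. Of the WT DAXX members 6 of 87 (6.90%, 2.57 to 14.4) overlapped WT ATRX, beside 5.52% of all WT DAXX peaks. Without the identical peaks the counts were 5 of 103 and 5 of 87. Both shares lay within counting error of the background.

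The same antibody in the other genotype also found few of the same places. Of the WT ATRX members 9 of 213 (4.23%) overlapped TKO ATRX, beside 3.71% of all WT ATRX peaks, and of the TKO ATRX members 10 of 240 (4.17%) overlapped WT ATRX, beside 3.19% of all. Most of these overlaps fell on the identical peaks: without them 2 of 103 WT ATRX members and 2 of 240 TKO ATRX members were left. For DAXX, 1 of 87 WT members (1.15%) overlapped a TKO DAXX peak, beside 1.6% of all WT DAXX peaks. The pair of lists with identical peaks overlapped most among the antibody lists: 110 of 213 WT ATRX members (51.6%) overlapped TKO DAXX, beside 51.9% of all WT ATRX peaks. Of the TKO DAXX members 110 of 392 (28.1%, 23.7 to 32.8) overlapped WT ATRX, beside 36.6% of all TKO DAXX peaks and 38.7% in the rest. Without chromosomes 8 and 11 this share was 39.6% (32.7 to 46.8) against 43.8% (40.9 to 46.7) in the rest, and the intervals overlapped.

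IgG peaks recurred between the genotypes. In the windows 49 of 66 WT IgG peaks (74.2%) overlapped TKO IgG, beside 63.1% of all WT IgG peaks, and 50 of 204 TKO IgG peaks (24.5%) overlapped WT IgG, beside 23.3% of all TKO IgG peaks. Without chromosome 4 the first share was 61.1%. Of the 932 antibody members, 2 overlapped an IgG peak of either genotype. In the rest such overlaps were rare too, from 0 to 0.329% of an antibody list with either IgG list. Whether IgG served as the control of the antibody calls is not known.

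**Figure D5:**
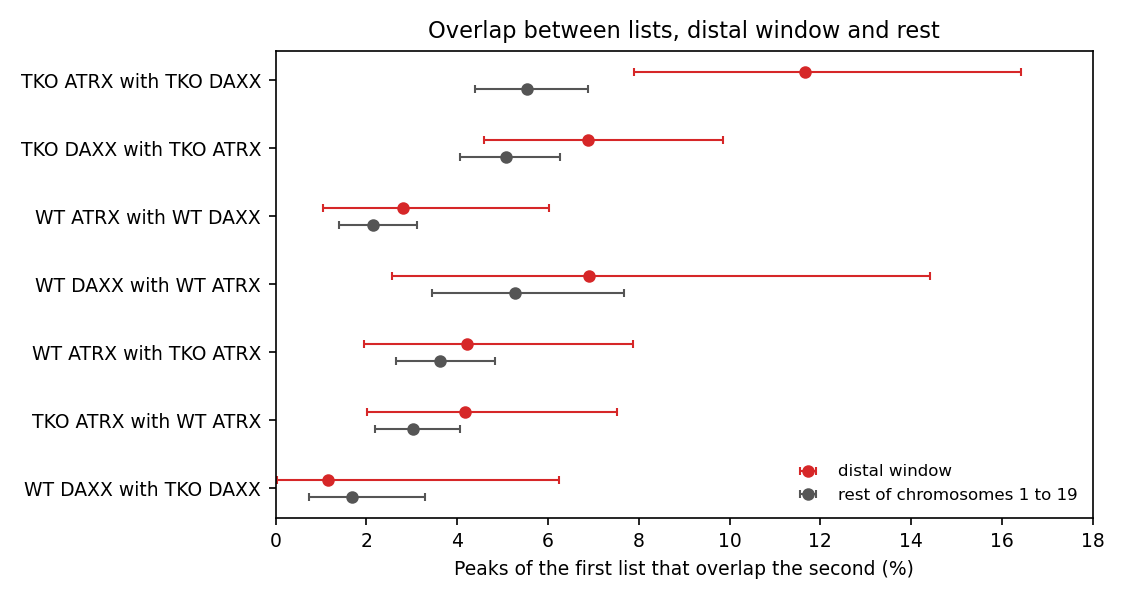
Share of peaks (%) that overlap a peak of a second list by at least 1 bp, in the distal windows and in the rest of chromosomes 1 to 19, with exact 95% intervals for counting error. TKO ATRX with TKO DAXX is at 11.7% in the windows and 5.54% in the rest, and in the other pairs shown the intervals of windows and rest overlap.

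Joined across the 4 antibody lists, the members formed 785 separate regions. Of these 649 were in 1 list, 127 in 2 lists, 8 in 3 lists and 1 in all 4, and 103 of the 127 were the identical WT ATRX and TKO DAXX peaks. Regions in at least 3 lists were 9 of 785 (1.15%, 0.526 to 2.17) in the windows and 40 of 3961 (1.01%) in the rest, so the windows did not stand apart beyond counting error. None of the 9 overlapped an IgG peak, and 7 of them counted an identical WT ATRX and TKO DAXX peak as 2 of their lists. In the rest all 40 did so. The shares of 1.15% and 1.01% thus rest largely on the identical peaks.

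The 1 region in all 4 lists was chr9:123842850-123844940, whose end is the highest listed peak end on that chromosome. Its scores were 146.64 in WT ATRX, 70.38 in WT DAXX and 164.77 in TKO DAXX, and TKO ATRX had 2 peaks there, with scores of 482.03 and 254.09. TKO ATRX had further peaks just before it, at chr9:123841006-123841969 with a score of 200.16 and at chr9:123832728-123834141 with 98.08. WT DAXX had one at chr9:123834165-123834488 with 84.07. The last stretch of chromosome 9 thus held 4 TKO ATRX peaks, 2 WT DAXX peaks and the 1 peak that WT ATRX and TKO DAXX share.

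Chromosome 3 held 3 of the 8 regions in 3 lists, all of them in WT ATRX, TKO ATRX and TKO DAXX and within 1 Mb. The strongest was chr3:154135874-154137135, with scores of 328.6 in WT ATRX, 386.53 in TKO ATRX and 502.74 in TKO DAXX. It was the top window peak of both WT ATRX and TKO DAXX, where it ranked 3 and 9 in the whole lists, and it ranked 14 in TKO ATRX. The other 2 were chr3:153729127-153730435, with scores of 72.78, 106.22 and 95.82 in the same order, and chr3:154243809-154244490, with 133.96, 102.06 and 114.92.

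The same 3 lists met at chr7:144708101-144708922, with scores of 93.24 in WT ATRX, 223.76 in TKO ATRX and 163.34 in TKO DAXX. They also met at chr16:93789413-93789782, with 73.31, 108.02 and 70.2, and in a region of chromosome 18, with 76.09, 157.26 and 128.26. WT DAXX joined both ATRX lists at chr10:127111639-127112327, with scores of 108.1 in WT ATRX, 173.79 in WT DAXX and 75.02 in TKO ATRX. It did so again at chr13:111158634-111159287, with 116.58, 69.68 and 174.67. These last 2 regions do not involve the identical peaks.

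ATRX and DAXX shared 27 of the 785 window regions in TKO cells, and 20 of the 785 were shared and in no WT list. In the rest they shared 77 of 3961 regions, and 39 of the 3961 were shared and in no WT list. The 20 lay on 9 chromosomes, with 5 on chromosome 11 and 3 each on chromosomes 6 and 8. TKO DAXX had its most window peaks on chromosomes 8 and 11, at 101 and 94. The part of that density in the shared regions was not tested. The strongest in TKO ATRX was chr1:194495777-194497547, with a score of 499.66 there and 94.26 in TKO DAXX. At chr6:142698787-142699997 the scores were 411.15 and 245.28, the highest TKO DAXX value of the 20. At chr11:116606776-116608128 the scores were 89.65 in TKO ATRX and 229.33 in TKO DAXX. At chr8:123990088-123991187 the scores were 204.43 and 116.29, and at chr9:121606751-121607206 they were 206.15 and 160.95.

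The highest-scoring members differed between the lists. The top 5 TKO ATRX members all overlapped a TKO DAXX peak, beside 6.44% of all TKO ATRX peaks on chromosomes 1 to 19. The overlap of equally high-scoring TKO ATRX peaks in the rest was not counted, so this is not read as a trait of the windows. After chr1:194495777-194497547 came the chromosome 9 end, the chromosome 6 region and the chromosome 3 region just described, and a peak on chromosome 18 with a score of 328.98. Of all 87 WT DAXX members, 6 overlapped a WT ATRX peak and 4 overlapped one of TKO ATRX. A TKO DAXX peak met 1 member, and a TKO IgG peak met 1. The top 5 WT DAXX members overlapped no peak of any other list, which with so few overlaps does not set them apart. They were chr15:97199487-97200024 with a score of 648.81, chr10:126500107-126500810 with 636.01, chr11:116714740-116715408 with 593.6, chr17:89363356-89364056 with 576.11 and chr9:123626595-123627081 with 546.37.

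WT ATRX followed its chromosome 3 peak with chr6:140129936-140130338 at 163.59, chr5:150539460-150539745 at 154.98, chr6:140183357-140183813 at 153.25 and the chromosome 9 end at 146.64. TKO DAXX followed its own with 2 peaks of the chromosome 8 run, at 296.53 and 255.42, the chromosome 6 region at 245.28 and chr14:122968165-122968327 at 235.28. The strongest WT IgG member was chr5:150348998-150349503, with a score of 433.75 and 108 tags. The strongest TKO IgG member was chr4:146735790-146742480, with 416.13, 6691 bp and 663 tags, inside the chromosome 4 stretch. Genes and base sequence at these positions were not analysed here.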

How the data were processed

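ChIP-seq peak lists of 6 libraries were used, 1 per genotype and antibody, so grouping followed the labels and no replicate test was made. Bowtie2, Picard and build mm9 are named, with no role, in the submitters' processing notes. The caller's settings and control input and the read totals were not given in the sources used here. For ATRX and DAXX, the 4 lists as deposited hold positions and scores, and the authors' score is read from its values as 10 times the negative log10 of p. The 2 IgG lists as deposited add a tag count and a ratio to the control (fold enrichment) per peak, per the file headers. These are the authors' values and served to describe and rank peaks within a list.

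Positions are mm9 as deposited, written 1-based. A chromosome's span ran from the lowest start to the highest end of any listed peak, so the windows of chromosomes 17 and 18, where no peak reached the full length, were 4.36 and 5.76 Mb and the others 9.03 to 10.98 Mb. Densities are peaks per Mb of that span. Intervals are exact (Clopper-Pearson) at 95%, and those of medians come from exact binomial order statistics. Overlaps needed at least 1 bp. The named peaks are the top 5 window peaks of each list by score and all regions in at least 3 antibody lists; the peak nearest the distal end, also in the rule, tied at the listed ends of several chromosomes and is not named. The TKO regions, the chromosome 4 stretch and the chromosome 8 run were named after their values were seen. The borders, members and lists were chosen with earlier results of these data known. Python 3.11.15, numpy 2.4.6, pandas 2.3.3 and scipy 1.17.1 were used, and the counting steps were tested on simulated data. Alternatives left out chromosomes, used the distal 5 Mb, higher scores or merged peaks, or dropped identical peaks.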

Additional observations from a re-analysis of the deposited data

Results flagged for a closer look

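The window share went in opposite directions between WT and TKO cells for the 2 factors, and the signs depended on the chromosomes counted. On chromosomes 1 to 19 the share of ATRX peaks in the windows changed by -0.19 percentage points from WT to TKO, and that of DAXX peaks by 3.89 percentage points. Without chromosomes 8 and 11 both signs turned: the change was 0.5 percentage points for ATRX and -0.72 for DAXX. The intervals of these shares overlapped between WT and TKO in each of the 4 cases. Without chromosome 4 the changes were -0.85 and 5.96 percentage points, and the DAXX intervals, 10.5 to 16.6% in WT and 17.6 to 21.1% in TKO, did not overlap. Without chromosomes 4, 8 and 11 the changes were -0.18 and 1.41 percentage points. With 1 library per group the difference between the factors was not tested.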

How the results depend on the processing

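Of 196 recomputed values, 164 stayed within counting error of the reported value, 26 moved beyond it and 6 turned a density ratio whose interval lay above 1 to a value under 1. Of the 108 ratios of median width or score among them, 16 came to lie on the other side of 1, 8 within counting error and 8 beyond it. Under these alternatives, each changed by itself, the density ratio lay between 2.02 and 2.2 for WT ATRX, 1.78 and 2.29 for WT DAXX, 1.95 and 2.45 for TKO ATRX, and 2.01 and 3.45 for TKO DAXX. The 6 density ratios that turned were all of IgG: 0.808 in WT and 0.525 in TKO for the distal 5 Mb, 0.745 and 0.617 without chromosome 4, and 0.859 and 0.669 without chromosomes 4, 8 and 11, where the chromosome 4 stretch is left out or, for the distal 5 Mb, counted with the rest. Other density ratios that moved were those of TKO DAXX, at 2.09 without chromosomes 8 and 11, 2.01 without chromosomes 4, 8 and 11 and 3.45 without identical peaks, that of TKO ATRX, at 2.45 for the upper 50% by score, and those of TKO IgG, at 4.22 with the first 10 Mb left out of the rest, 3.98 for the upper 50% by score and 2.62 with peaks merged within 1 kb. Ratios of median width, window to rest, that moved were 1.07 for WT ATRX and 1.08 for TKO DAXX in the upper 50% by score, 0.985 for WT ATRX without identical peaks, 1.04 for WT IgG without chromosome 4, and for TKO IgG 1.03 in the distal 5 Mb, 1.75 when merged, 1.12 without chromosome 4 and 1.16 without chromosomes 4, 8 and 11. Ratios of median score that moved were 1.02 for WT ATRX and 1.16 for WT IgG in the distal 5 Mb, 0.909 for WT IgG with the first 10 Mb left out, 1.33 and 1.38 for WT DAXX in the upper 50% by score and at scores of 70 or more, 0.997 for TKO DAXX without chromosomes 8 and 11 and again without chromosomes 4, 8 and 11, and 1.13 and 1.12 for WT IgG without chromosome 4 and without all 3. The WT DAXX overlap with TKO DAXX was 0 of 40 members in the upper 50% by score, which allows a share of up to 7.5%, and the WT IgG overlap with TKO IgG was 61.1% without chromosome 4. Apart from where the stretch is placed, the cause of these moves was not tested. Leaving out chromosome 4, leaving out chromosomes 4, 8 and 11, taking each window as 10 Mb, and dropping identical peaks from overlaps and from TKO to WT ratios were chosen after the data were seen. Spans from mm9 chromosome lengths were not run, since no reference of that build was used here. No paired analysis was possible because each group had 1 library. Depth is unknown, so counts of peaks cannot be scaled between lists.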

Other observations

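Neighbouring peaks stood closer together in the windows. The median distance to the next peak was 207.9 kb in the windows against 378.4 kb in the rest for WT ATRX, 464.5 against 702.2 kb for WT DAXX, 208.4 against 342 kb for TKO ATRX and 78.1 against 220.1 kb for TKO DAXX. Peaks within 10 kb of the next one were 8.45% of WT ATRX members against 4.61% in the rest, 9.17% against 5.18% for TKO ATRX and 12.8% against 7.35% for TKO DAXX. WT DAXX went the other way, with 4.6% of its members and 13.7% of its peaks in the rest. Without the identical peaks the median distances were 752 against 1810 kb for WT ATRX and 135 against 601 kb for TKO DAXX.

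The highest listed peak end of a chromosome came from TKO DAXX on 8 chromosomes, WT ATRX on 7, TKO ATRX on 3, WT DAXX and WT IgG on 2 each and TKO IgG on 1, with shared ends counted in each list.

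On the X chromosome, which the windows leave out, the last 10 Mb made up 6.11% of the span and held 2 of 12 WT ATRX, 0 of 6 WT DAXX, 3 of 19 TKO ATRX and 7 of 21 TKO DAXX peaks. IgG had 4 of 19 in WT and 10 of 53 in TKO there.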
